A study of Homo sapiens with 16 samples.

Results

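The clustered protocadherin promoters are the gene starts of the alpha, beta and gamma protocadherin arrays on chromosome 5. They were taken as every captured promoter whose gene symbol names a member of these arrays, and 22 of the 21857 promoters qualified. These were PCDHA12 from the alpha array, 19 promoters of the beta array, and PCDHGC5 and PCDHGB8P from the gamma array. PCDHB17, PCDHB18, PCDHB19P and PCDHGB8P are annotated as pseudogenes. The other alpha and gamma first exons were not analysed here.

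The samples came from GM12878, a human B-lymphoblastoid line made by Epstein-Barr virus transformation. Cells were left untreated or exposed to heat-killed Salmonella typhimurium (HKST) for 20, 40 or 60 min, cross-linked with formaldehyde, and their nuclei digested with 20 U (light) or 200 U (heavy) of micrococcal nuclease (MNase). Each of the 8 combinations had 2 replicates (16 samples), but each deposited table pools both, so no spread between replicates could be measured and no test was made. The sample titles of the first replicate carry the label NOHDI, which those of the second lack. The titles do not explain this label. The 20 min tables used here hold no row of chromosome 5, and the untreated heavy table holds 19 of the 22 promoters, without PCDHB8, PCDHB19P and PCDHGB8P. The 6 tables with protocadherin rows rest on 3272000 to 10080000 fragments each.

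Each clustered protocadherin is a cadherin-like adhesion molecule of the cell surface, and neurons use the many isoforms to tell their own processes from those of other cells. In the alpha and gamma arrays each variable first exon has its own promoter and is spliced to constant exons shared by the array, whereas each beta gene is a single-exon gene of its own. In neurons, a promoter is chosen with the help of CTCF, cohesin and a distant enhancer, and most of the promoters carry a short conserved sequence element with the core CGCT. Nucleosomes released by light digestion give a positive log2 ratio of light over heavy signal and are called MNase-sensitive here, and those recovered preferentially after heavy digestion give a negative ratio and are called MNase-resistant.

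The sequences shown first are those around the conserved element, which most of these promoters carry upstream of the start codon. A start codon lay within 300 bp downstream of the captured transcription start site (TSS) in 17 promoters, and in 8 of them the captured TSS was the start codon itself. Among the 17, the motif GGTGGCGCT occurred in 13, all beta promoters, with its first base at -265 to -232 bp from the start codon. In the window from 250 bp upstream to 50 bp downstream of the TSS, it stood on the gene's strand in 13 of the 22 promoters and in 0.361% of all promoters, and on either strand in 0.645% of all. The motif was spelled out after the sequences had been seen. In PCDHB2, PCDHB3, PCDHB5, PCDHB7, PCDHB8, PCDHB9 and PCDHB15 the stretch around the motif did not lie outside annotated exons, and these are not shown. Capitals mark the motif or its counterpart, and all sequences shown are of the plus strand of hg19 and lie outside annotated exons.
PCDHB4, chr5:140501300-140501335: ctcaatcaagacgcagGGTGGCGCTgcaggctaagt
PCDHB10, chr5:140571867-140571902: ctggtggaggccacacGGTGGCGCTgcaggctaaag
PCDHB11, chr5:140579098-140579133: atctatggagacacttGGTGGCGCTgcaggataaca
PCDHB12, chr5:140588210-140588245: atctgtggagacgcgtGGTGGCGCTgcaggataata
PCDHB13, chr5:140593432-140593467: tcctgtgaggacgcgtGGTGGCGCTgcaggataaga
PCDHB14, chr5:140602830-140602865: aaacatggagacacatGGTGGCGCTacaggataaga
PCDHB6, chr5:140529567-140529602: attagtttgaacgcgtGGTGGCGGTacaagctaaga

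PCDHB6 differed from the motif by C8G, with positions counted from 1 at the motif's 5′ end. PCDHA12 and PCDHB1 held CGCT without the rest of the motif, at -213 and -202 bp from their start codons, and are shown with CGCT alone in capitals. Whether CGCT there belongs to the same element was not tested.
PCDHA12, chr5:140254824-140254859: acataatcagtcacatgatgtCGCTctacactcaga
PCDHB1, chr5:140430833-140430868: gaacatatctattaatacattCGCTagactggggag

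PCDHGC5, a C-type promoter, held neither the motif nor CGCT from -260 to -200 bp of its start codon. CGCT occurred in that interval in 15 of the 17 promoters and in 21.5% of the 9419 captured promoters with a start codon within the same distance. To show the element in its surroundings, the 200 bases that end just before the first annotated start of PCDHB4 are given, at chr5:140501200-140501399, with the motif in capitals.
PCDHB4 promoter: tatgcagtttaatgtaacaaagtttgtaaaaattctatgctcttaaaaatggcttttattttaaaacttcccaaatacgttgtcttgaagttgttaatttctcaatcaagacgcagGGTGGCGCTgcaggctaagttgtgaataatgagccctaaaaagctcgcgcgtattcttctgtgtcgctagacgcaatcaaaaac

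From 250 bp upstream to 50 bp downstream of the TSS, the shorter motif GGCGCT, which lies inside the longer one, stood on the gene's strand in 13 of the 22 promoters against 14.0% of all. AGNNGGCGC, part of the CTCF motif, occurred on either strand in 2 of the 22 promoters and 11.8% of all. Both were copies of GGTGGCGCT that follow an A, in PCDHB7 and PCDHB9. The other copies follow another base and match this pattern from its G onward, so the count turns on that base. TATAAA occurred on either strand in 4 of the 22 and 10.7% of all. The core CGCT, which both GGCGCT and the long motif contain, was found on either strand in 18 of the 22 and in 75.7% of all, so the core alone is common in promoters.

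The captured promoters span 140254931 to 140868808 on chromosome 5 of hg19, all on the plus strand, and the 2 closest TSSs are 3609 bp apart, so no windows overlap. Their GC content over 2 kb had a median of 41.6% (35.4% in PCDHB16 to 52.8% in PCDHGC5), against 55.0% over all promoters. The upstream kilobase had a median GC of 36.7% and the downstream kilobase, which holds the coding exon, 48.0%. PCDHB16 stood apart: its captured TSS is 982 bp upstream of the nearest annotated start and 1155 bp upstream of the start codon, so its window covers mostly intergenic sequence. Near-identical copies are another limit. In PCDHB8 and PCDHB13, 38.7% of the 50-base words recur elsewhere in the protocadherin region, followed by 19.8% in PCDHB9 and 17.3% in PCDHB10. The authors discarded reads without a unique alignment, and in PCDHB13, 31 of the 72 bins over such repeated sequence held no light fragment, although the mean light signal was 1.17 rpm over the repeated bins and 1.19 rpm over the others. In PCDHB8 it was 0.403 and 0.967 rpm.

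The cells' label was read against promoters of cell-type genes. The measured B-cell marker promoters (6 of 9) had less signal at the TSS (-100 to 50 bp) than over their 2 kb, with a median log2 ratio of -1.68 and all 6 below 0, the trough seen at most promoters. The 3 myeloid marker promoters, LYZ, CD14 and ITGAM, were all above 0 (median 0.83). The T-cell markers had a median of -0.22 (5 promoters) and the neuron markers 0.76 (3 promoters, of which SNAP25 was at -1.35). The protocadherin promoters were measured in the same way.

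Protocadherin promoters gave about as much nucleosomal signal as promoters at large, but in other positions. The total signal, light plus heavy, had a median of 2.28 rpm per window (fragments per 1000000, averaged over 2 kb) in untreated cells over 19 promoters, against 2.24 over all promoters. Individual promoters ranged from 0.709 in PCDHB16 and 1.81 in PCDHB14 to 3.33 in PCDHGC5 and 3.68 in PCDHB1, the gene at the start of the beta array. All 19 had more signal in the kilobase downstream of the TSS than upstream, with a median log2 difference of 1.12, where 51.7% of all promoters did (median 0.03). Signal at the captured TSS exceeded the mean of the 2 kb in 11 of 19, against 18.4% of all promoters. In 8 of the 19 the captured TSS is the start codon. The nearest annotated start then lies at -184 bp (PCDHB15) to -74 bp (PCDHGC5) from it. An annotated start lay within 50 bp in 12 of the 22 promoters, against 70.6% of all. The ratio at the TSS therefore does not describe the same site in every promoter. The median of this ratio was 0.55 on the log2 scale (all promoters, -1.63), but it was -0.58 when the window was shifted to -150 to 0 bp, and the cause of this difference was not tested. PCDHB3 (1.72) and PCDHB4 (1.26), both captured at the start codon, were the highest. PCDHA12 (-1.44) and PCDHB7 (-1.17) were the lowest.

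**Figure D1:**
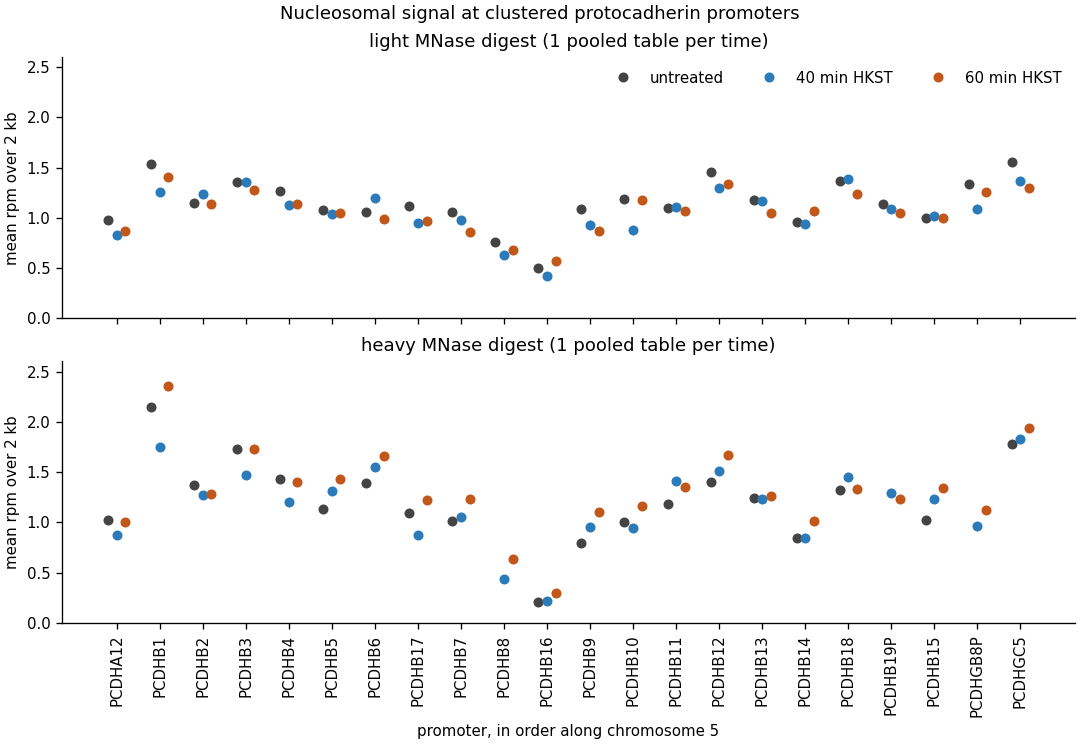
Mean signal over 2 kb (rpm, vertical axis) at each of the 22 promoters in order along chromosome 5 (horizontal axis), for the light (top) and heavy (bottom) tables; each point is 1 pooled table. PCDHB16 is the lowest promoter in all 6 tables, and PCDHB8, PCDHB19P and PCDHGB8P have no untreated heavy value.

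Since the captured TSS fell at various distances from the coding exon, the profiles were also aligned on the start codon, a choice made after seeing the data. The 16 promoters with a start codon within 300 bp and both untreated tables then gave a mean profile with several peaks. In untreated cells the mean profile peaked 190 bp upstream of the start codon (1.56 times the mean of the promoter's 2 kb), at the start codon (1.95 times), and 220 bp (1.46 times) and 410 bp (1.60 times) downstream. The distances between these peaks were 190, 220 and 190 bp. Single promoters differed from the mean. The windows compared next lie on high parts of the protocadherins' own mean profile. Higher signal there than in other promoters, olfactory receptors included, is therefore partly built in. The window from -250 to -150 bp was above the promoter's mean in 8 of 16 (median 0.974), against 19.1% of other promoters. It ran from 2.93 times in PCDHB2 to 0.131 in PCDHA12. The window from 150 to 250 bp was above the mean in 10 of 15 (median 1.62), against 25.5% of other promoters. It was at 0 in PCDHB9, PCDHB10 and PCDHB13, which all hold repeated words. Reads without a unique alignment were discarded, so low signal in these promoters cannot be told apart from lost reads. The deepest trough, 0.297 of the mean, lay 330 bp upstream of the start codon. The window from -50 to 50 bp around the start codon was above the mean in 12 of 16 promoters. The 4 exceptions were PCDHB1 (0.626), PCDHB6 (0.848), PCDHB7 (0.581) and PCDHB13 (0.473), the last with repeated words. In PCDHB3 the signal there reached 3.80 times the mean and in PCDHB4 3.37 times. The same window was above the mean in 25.2% of 7640 other promoters, whose median was 0.394. From 600 to 700 bp into the coding exon all 16 promoters were above the mean (median 2.12 times), as were 53.9% of the other promoters (median 1.09). Between the peaks, from -150 to -100 bp, the protocadherins had a median of 0.629, with 4 of 16 above the mean. Other promoters had a median of 0.148 there, with 15.1% above the mean. From 250 to 300 bp the protocadherin median was 0.667, with 4 of 15 above the mean, against 0.604 and 32.3% of other promoters.

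The conserved element lay between the first of these peaks and the deep trough of the mean profile. Over the 40 bp around CGCT, the signal had a median of 0.46 times the promoter's mean. It was above the mean in 2 of 14 promoters, PCDHB5 (1.09) and PCDHB13 (3.01). The 14 include PCDHA12 (0.075) and PCDHB1 (0.219), which hold CGCT without the rest of the motif. Signal over CGCT was not measured in other promoters. From -250 to -150 bp these had a median of 0.271, with 19.1% above the mean. The values over CGCT therefore do not show a depletion particular to the element. Olfactory receptor promoters, another family of clustered genes, had a median of 0.271 in the window from -250 to -150 bp, with 12 of 88 above the mean, beside the 0.974 and 8 of 16 of the protocadherins. From -50 to 50 bp their median was 0.882, with 33 of 90 above the mean. From 150 to 250 bp it was 1.25, with 61 of 89 above the mean, beside 1.62 and 10 of 15 of the protocadherins. From 600 to 700 bp it was 1.40, with 66 of 90 above the mean, beside 2.12 and 16 of 16.

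**Figure D2:**
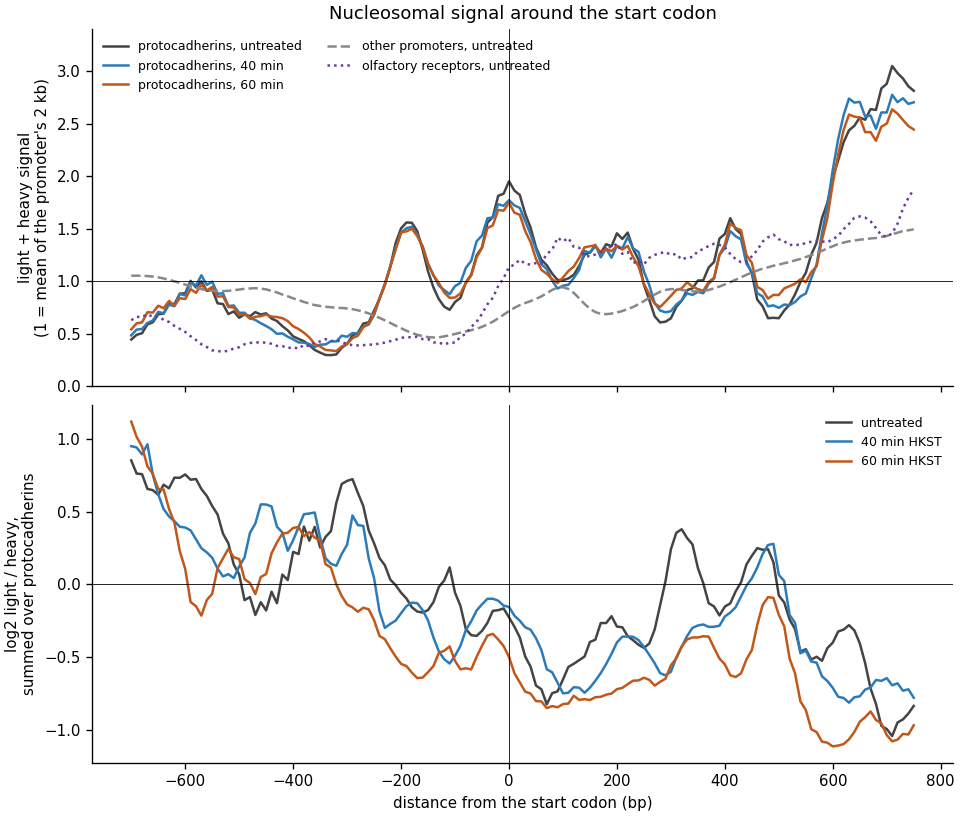
Top, light plus heavy signal (vertical axis, 1 is the mean of the promoter's 2 kb) against distance from the start codon (bp, horizontal axis), averaged over 16 protocadherin promoters at 3 times, 7646 other promoters and 90 olfactory receptor promoters, smoothed over 50 bp; the protocadherin peaks at -190, 0, 220 and 410 bp stand in the untreated line. Bottom, log2 of light over heavy signal summed over the 16 promoters, where the 60 min line runs below the untreated line over most of the coding side.

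This arrangement changed little after HKST. The peaks lay 180 bp upstream of the start codon, at it and 410 bp downstream at both 40 and 60 min, and the broad peak near 220 bp was highest at 160 bp at 60 min. Each promoter's total profile correlated with its untreated profile along the 200 bins, with a median r of 0.93 at 40 min (0.86 in PCDHB15 to 0.97) and 0.92 at 60 min (0.89 in PCDHB17 to 0.98). The bins of a promoter share fragments and are no replicates.

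In untreated cells the protocadherin promoters as a group were neither sensitive nor resistant over 2 kb. The log2 ratio of light over heavy signal had a median of -0.06 over 19 promoters, against 0.07 over 16057 promoters, and 11 of the 19 were below 0, where 44.9% of all promoters were. No protocadherin promoter passed a 2-fold difference in either direction, and 1.24% of all promoters did so on the sensitive side and 1.92% on the resistant side. With a pseudocount of 0.01 of the mean value, PCDHB16 alone passed on the sensitive side. PCDHB1 and PCDHB6 had the lowest ratios and PCDHB9 and PCDHB16 the highest.

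PCDHB1 had 1.53 rpm in the light and 2.15 rpm in the heavy table of untreated cells, a log2 ratio of -0.45 (95% counting interval -0.69 to -0.28). PCDHB6 had 1.06 and 1.39 rpm and a ratio of -0.35 (-0.63 to -0.13). Both recovered more signal after heavy digestion. PCDHB9 had 1.09 rpm in the light and 0.798 rpm in the heavy table, a ratio of 0.40 (0.16 to 0.76). PCDHB16, with only 131 light and 28 heavy fragments, was at 0.94 (0.70 to 1.94). These intervals come from the fragments without a pseudocount and cover counting error alone, since amplified reads are not independent molecules, and the replicates' own spread is unknown. The interval lay below 0 in 4 of the 19 promoters and above 0 in 2. The shares of all promoters with such intervals were not computed, so these counts set no contrast with promoters at large.

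**Figure D3:**
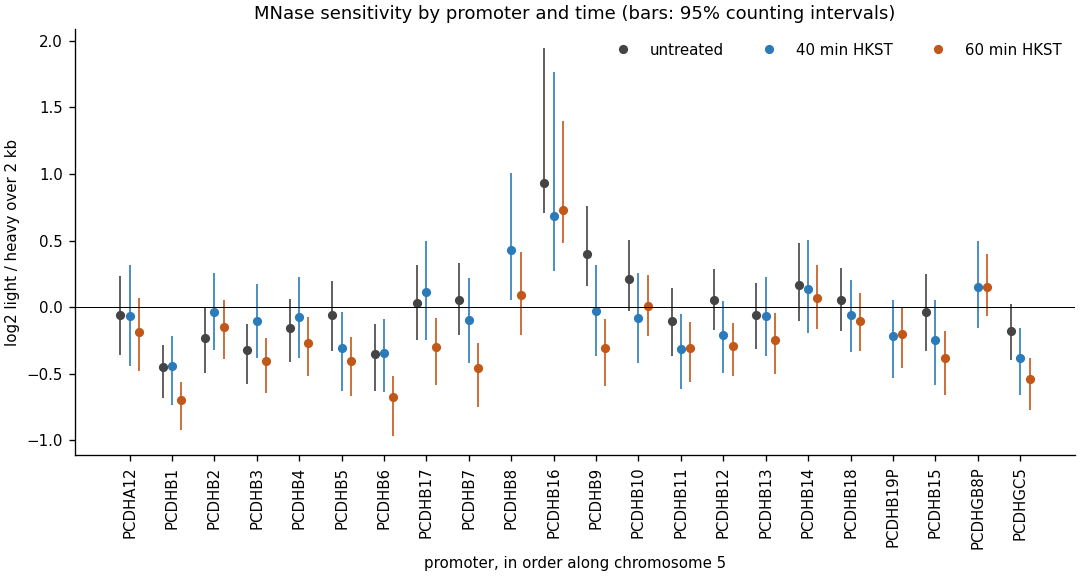
Log2 of light over heavy signal over 2 kb (vertical axis) at each promoter in order along chromosome 5 (horizontal axis), in untreated cells and after 40 and 60 min of HKST; bars are 95% counting intervals. At 60 min 13 of the 22 intervals lie below 0 and 1, that of PCDHB16, above; the shares over all promoters were not computed.

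The near-zero ratio over 2 kb joined 2 sides of opposite sign. The upstream kilobase was sensitive, with a median log2 ratio of 0.51 over 16 promoters (all promoters, 0.17), and 14 of the 16 were above 0, against 61.3% of all promoters. The downstream kilobase was resistant, with a median of -0.28 over 19 promoters (all promoters, -0.05), and 16 of the 19 were below 0, against 53.3% of all. Upstream exceeded downstream in 15 of 16 promoters, against 65.9% of all promoters, and the median difference was 0.74 on the log2 scale against 0.23. PCDHB3 was the exception (-0.40 upstream and -0.26 downstream). PCDHA12 was the most divided, at 1.18 upstream and -0.55 downstream. The difference in GC between the 2 sides, given above, ran alongside: across all promoters the 2 kb ratio fell with GC (Spearman's rho -0.57, a description over 16057 promoters that share 2 tables), and over the 19 protocadherin promoters rho was also -0.57. Its part in the result was not tested. The protocadherins were less sensitive over 2 kb than other promoters of low GC: when all promoters were cut into 3 equal classes by GC, the lowest class (up to 52%), which holds 18 of the 19, had a median ratio of 0.36.

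**Figure D4:**
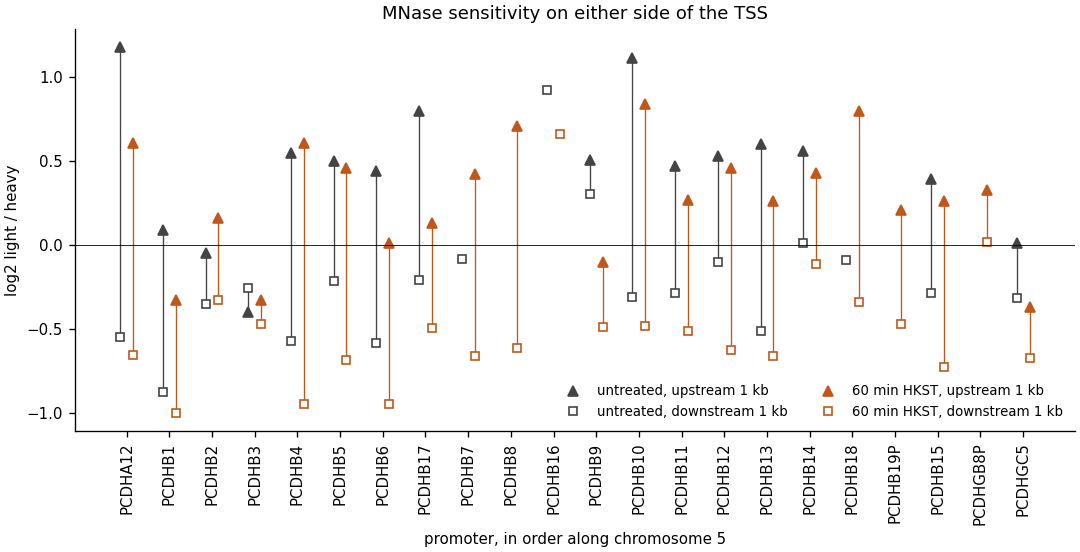
Log2 of light over heavy signal (vertical axis) in the kilobase upstream (triangles) and downstream (squares) of the TSS at each promoter (horizontal axis), untreated and at 60 min; a line joins the 2 sides of a promoter. Triangles stand above squares in every joined pair except untreated PCDHB3, and sides with under 20 fragments in a table are left out.

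The window from -200 to 0 bp of the captured TSS, which the paper takes for the -1 nucleosome, was compared next. In the 8 promoters captured at the start codon, PCDHB3 and PCDHGC5 among them, part of this window lies downstream of the annotated start. It need not hold a -1 nucleosome there. In untreated cells its median log2 ratio was 0.15 over 18 promoters, against 0.13 over all promoters, with a wide range. PCDHB5 was the highest at 1.15, from 20 light and 4 heavy fragments, followed by the pseudogene PCDHB17 at 0.69 from 42 and 13. PCDHB3 was the lowest at -1.17, from 83 light and 100 heavy fragments, followed by PCDHGC5 at -0.28 from 72 and 46. The few fragments in these windows limit this measure.

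At 60 min of HKST the protocadherin promoters were more resistant over 2 kb than in untreated cells. The log2 ratio was below its untreated value in 18 of 19 promoters, where 49.1% of all promoters were lower, and the median change was -0.21 (range -0.71 to 0.08) against 0.01 over all 16053 promoters. The 25th percentile of all changes was -0.17, and 13 of the 19 lay below it. Each single change was small: no promoter passed 2-fold in either direction, as 0.00623% of all promoters did upward and 0% downward. The counting interval of the change lay below 0 in 6 of 19, against 9.35% of all promoters, and above 0 in 0 of 19, against 8.1% of all. Summed over the 19 promoters, 6804 light and 3775 heavy fragments before HKST became 6533 and 5787 at 60 min, a log2 change of -0.27 after scaling to depth (counting interval -0.35 to -0.19). The sum over the 17 beta promoters gave -0.26 (-0.35 to -0.18).

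PCDHB9 had the lowest change. It gave 1.09, 0.929 and 0.867 rpm in the light tables of untreated, 40 min and 60 min cells, and 0.798, 0.95 and 1.10 rpm in the heavy tables. Light signal was lower and heavy signal higher at each step, and the log2 ratio went from 0.40 to -0.31, a change of -0.71 (-1.19 to -0.41). PCDHB9 is one of the promoters with repeated words: its mean light signal was 0.696 rpm over the repeated bins, 14 of 34 of them empty, and 1.17 rpm over the other bins.

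PCDHB7 followed, with 1.06, 0.978 and 0.865 rpm in the light tables and 1.02, 1.06 and 1.23 rpm in the heavy tables. Its change was -0.51 (-0.94 to -0.20), and it has no repeated words. PCDHGC5, the only C-type promoter captured, had 1.56, 1.37 and 1.30 rpm in the light and 1.77, 1.82 and 1.94 rpm in the heavy tables. Its change was -0.37 (-0.68 to -0.10), in the same direction as the beta promoters. Of the remaining promoters whose interval lay below 0, PCDHB5 changed by -0.35 (-0.73 to -0.03), PCDHB6 by -0.33 (-0.70 to -0.03) and PCDHB12, named after its values were seen, by -0.35 (-0.68 to -0.06).

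The 2 highest changes at 60 min were those of PCDHB3 and PCDHB2. PCDHB3 had 1.35, 1.36 and 1.27 rpm in the light and 1.72, 1.47 and 1.73 rpm in the heavy tables, a change of -0.08 (-0.39 to 0.22). PCDHB2 had 1.15, 1.23 and 1.14 rpm in the light and 1.37, 1.27 and 1.28 rpm in the heavy tables, a change of 0.08 (-0.25 to 0.42). Both intervals include 0. PCDHA12, the alpha promoter, was at -0.13 (-0.55 to 0.26) and PCDHB16 at -0.21 (-1.16 to 0.40), the widest interval of all.

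Both digests differed from the untreated cells. With light digestion 19 of 22 promoters had less signal at 60 min than untreated, against 50.8% of all promoters, with a median log2 change of -0.11. With heavy digestion 16 of 19 had more, against 46% of all promoters, with a median of 0.18. Light signal was lower and heavy signal higher together in 13 of 19 promoters, a joint count whose share over all promoters was not computed. The lower ratio was also present on both sides of the TSS: the upstream kilobase was lower in 13 of 16 (median -0.24), against 51% of all promoters, and the downstream kilobase in 18 of 19 (median -0.27), against 49.5% of all. In the -1 window the median change at 60 min was larger, -0.52 over 18 promoters (13 lower, against 48.1% of all promoters), but it ranged from -1.02 in PCDHB5 to 0.48 in PCDHB10 on few fragments. PCDHGC5 (-0.64) and PCDHB9 (-0.75) were lower there too, and PCDHB3 was higher (0.34).

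At 40 min the same comparison gave a smaller difference. The median change over 2 kb was -0.07 over 18 promoters, against 0.02 over all, and 12 of 18 were lower, against 47.1% of all promoters. All 12 were lower at 60 min as well. PCDHB16 was left out at 40 min, since its heavy table held 19 fragments where 20 were required. PCDHB9 was again lowest (-0.43, interval -0.94 to -0.03) and the only 1 of 18 with an interval below 0, against 5.3% of all promoters, and no interval lay above 0, against 5.92% of all. PCDHB10 was next (-0.30, -0.76 to 0.12): its light signal went from 1.19 to 0.881 rpm at 40 min and stood at 1.17 rpm at 60 min. PCDHB3 (0.22) and PCDHB2 (0.19) were highest, as at 60 min, though their intervals, -0.11 to 0.61 and -0.16 to 0.60, include 0. No promoter passed 2-fold, and 0.00627% of all promoters did upward and 0.0501% downward. With light digestion 16 of 22 promoters had less signal at 40 min, against 48.7% of all promoters, and with heavy digestion 11 of 19 had more, against 49.1% of all. In the -1 window the median change at 40 min was -0.06, with 9 of 18 lower against 45.7% of all, and its sign varied with the fragment minimum. The 40 and 60 min changes share the untreated tables and are not independent of each other.

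The step from 40 to 60 min uses no untreated table and includes the promoters missing there. The ratio was lower at 60 min in 18 of 21 promoters, against 53.1% of all promoters, with a median change of -0.14 against -0.02. The interval lay below 0 in 2 of 21, PCDHB6 and PCDHB7, against 7.66% of all promoters, and above 0 in 0 of 21, against 4.3% of all. PCDHB8 changed by -0.34 (-1.0 to 0.15), whereas the pseudogenes PCDHB19P (0.01) and PCDHGB8P (-0.00) were level. At 60 min 17 of all 22 promoters were on the resistant side, against 47.4% of all promoters, with a median ratio of -0.28 and a range of -0.70 in PCDHB1 to 0.73 in PCDHB16.

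**Figure D5:**
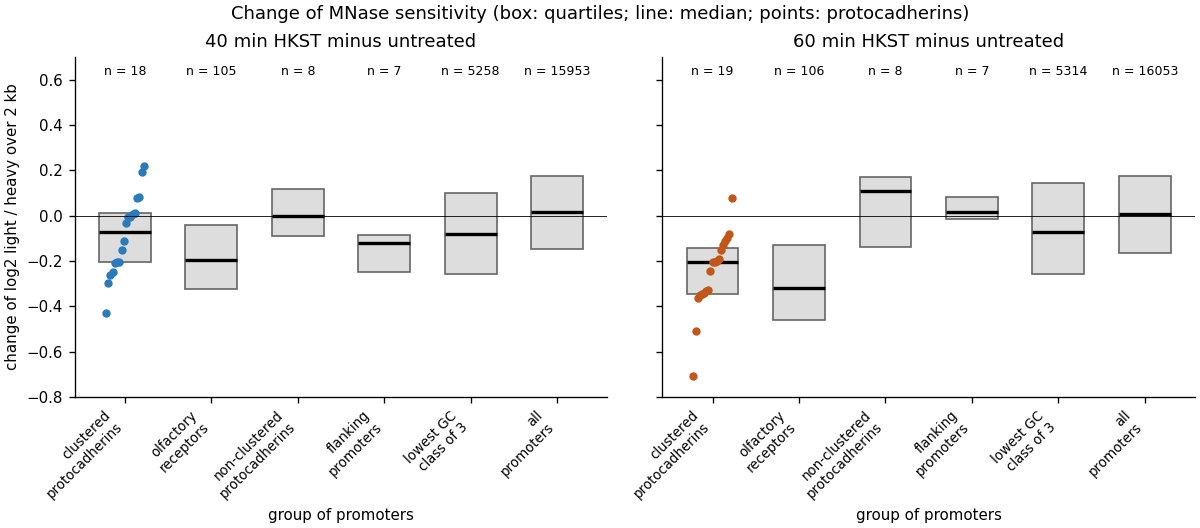
Change of the log2 light over heavy ratio over 2 kb (vertical axis) at 40 min (left) and 60 min (right) for groups of promoters (horizontal axis); boxes run between the quartiles of the promoters, lines are medians, points are the protocadherin promoters, and n is the number measured. At 60 min the medians are -0.21 for protocadherins, -0.32 for olfactory receptors and 0.01 for all promoters.

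Other promoters were lower at 60 min too. Olfactory receptor promoters, with a similar GC content (median 41.3%), had a median change of -0.32 at 60 min, with 99 of 106 lower, and -0.19 at 40 min. They too were more sensitive upstream than downstream, with a median untreated ratio of 0.63 upstream and -0.06 downstream. Over all promoters these medians were 0.17 and -0.05. The olfactory downstream side was thus near that of all promoters, whereas the protocadherins' was at -0.28. The lowest of the 3 GC classes had a median change of -0.07 at 60 min, nearer to 0 than either family. The part of base composition in the change was not tested. Within the 19 protocadherin promoters GC and the 60 min change had a Spearman's rho of -0.17, a weak relation of the opposite sign to that over all promoters (0.16).

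The non-clustered protocadherins, related adhesion genes outside the alpha, beta and gamma arrays, had a median change of 0.11 at 60 min over 8 promoters, with 3 lower. PCDH12 was the lowest (-0.21, interval -0.44 to 0.01), a promoter of an endothelial protocadherin, and PCDH18 the highest (0.23, -0.12 to 0.62). Of the 5 promoters on each side of the captured protocadherins, 7 were measured, among them those of the deacetylase gene HDAC3 and the formin gene DIAPH1, and their median change was 0.02 with 3 lower. SLC25A2, a mitochondrial ornithine carrier, and TAF7, a subunit of the general transcription factor TFIID, lie between the beta and gamma arrays on the opposite strand. SLC25A2 had 0.9, 0.817 and 0.789 rpm in the light and 1.11, 1.27 and 1.31 rpm in the heavy tables, a change of -0.38 (-0.87 to 0.02) at 60 min. TAF7 had 0.994, 1.10 and 1.09 rpm in the light and 0.752, 0.994 and 0.914 rpm in the heavy tables, a change of -0.13 (-0.58 to 0.28). Both had a trough at the captured TSS, at -2.37 and -2.56 on the log2 scale. Most protocadherin promoters around them did not, but several of those were captured at the start codon.

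Promoters of genes that act on the protocadherin arrays in other cells, such as CTCF, cohesin subunits and loaders, DNA methyltransferases and SMCHD1, were described as a list. Of 19 regulators 15 were measured at 60 min, the median change was 0.07, and 4 were lower, against 49.1% of all promoters. In either direction 0 passed 2-fold, where 0.00623% of all promoters did upward and 0% downward. SMC3, a core subunit of cohesin, was highest. It had 1.28, 1.20 and 1.45 rpm in the light and 1.07, 0.945 and 0.753 rpm in the heavy tables, a change of 0.62 (0.33 to 1.07), the opposite direction to the protocadherin promoters. NIPBL at 0.53 (0.19 to 1.01) and WAPAL at 0.44 (0.08 to 0.93) also had intervals above 0, as 8.1% of all promoters did. SETDB1, a histone H3 lysine methyltransferase, was lowest at -0.17 (-0.85 to 0.31), and no regulator's interval lay below 0.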

How the data were processed

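Per the labels and the study's methods, the authors clipped adapters, aligned read pairs to hg19 (Bowtie2 2.2.2 in the submitters' processing notes), discarded non-unique pairs and deposited rpm values (fragments per 1000000): centres of fragments of 140 to 200 bp, counted every 10 bp in windows of 60 bp over 2 kb per TSS. SAMtools and bedtools are also named there. Each deposited table pools 2 replicates. All values were multiples of 0.5 of a fragment (within 0.05 of a step), which gave the fragments behind each value.

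Signal was averaged over 2 kb or from -200 to 0 bp, 0.1 of the mean value was added as pseudocount (0.118 rpm), and log2 light over heavy was taken. At least 20 fragments per table (10 in all in the -1 window) were required. No test was made. Counting intervals (95%) are Clopper-Pearson or exact conditional (scipy 1.17.1) and were tested on simulated data. Sequences, start codons and exons were read from GRCh37 with GENCODE release 44 lifted to it. Named were the C-type promoters, the 2 highest and 2 lowest members per measure, SLC25A2, TAF7 and the extremes of 2 lists. Members and lists were chosen with earlier results of these data known.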

Additional observations from a re-analysis of the deposited data

How the results depend on the processing

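No paired analysis was possible because each table pools both replicates, and for the same reason no replicate could be left out. Of 113 alternative values for the protocadherin medians and counts, 109 stayed within the 95% order-statistic interval of the median over promoters, or within 1.5 times a count. Of the other 4, the median total signal was 1.11 rpm with the light digest alone and 1.19 rpm with the heavy digest alone, which follows from taking 1 digest where the main value adds both. The median relative signal at the TSS was -0.58 with a window of -150 to 0 bp; the cause was not tested. With a pseudocount of 0.01 of the mean value, 1 promoter, PCDHB16, passed 2-fold on the sensitive side in untreated cells. Some of the 109 could not differ from the main value. Each promoter has 1 row, so keeping the first row per gene changed nothing, and PCDHB16 was already left out at 40 min. Others are counts past 2-fold that stayed at 0. The median change at 60 min stayed negative under every alternative, between -0.15 with a pseudocount of 0.5 of the mean value and -0.29 without the 6 promoters with repeated words, an alternative added after seeing the data. The median change in the -1 window at 40 min was 0.11 with the fragment minimum doubled and 0.11 without one. The main value was -0.06, so the sign differed although both values stayed within the interval. Low depth, 19 to 194 heavy fragments per promoter at 40 min, limits single promoters most.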
